A study of Homo sapiens with 6 samples.

Results

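Silencing of squalene epoxidase (SQLE) in U2OS cells was examined for 10 genes of disulfide isomerization and oxidative folding in the endoplasmic reticulum (ER): the protein disulfide isomerases PDIA3, PDIA5, PDIA6 and P4HB, the thioredoxin-domain proteins TXNDC5 and TXNDC11, the oxidases ERO1A and ERO1B, and the ER folding proteins CRELD2 and MANF. The genes were taken by symbol, and each matched 1 Ensembl identifier among the 19937 genes of the count table. U2OS cells are a human osteosarcoma line. The comparison used 6 libraries of poly(A) RNA read as pairs of 151 bp, 3 from cells that stably carried a short hairpin RNA with the genotype SQLE-shRNA (shSQLE) and 3 from cells that carried scrambled-shRNA (shControl). Both populations had received a lentiviral pGIPZ construct and had been selected with puromycin, so that each group stands for 1 selected line. Whether cells were cloned after selection is not stated in the paper. For silencing, the paper used 1 hairpin that it had selected from several. Other effects of this hairpin, and differences between the selected populations, cannot be told apart from loss of SQLE. The methods give technical replicates as the study's general rule and nothing specific for these libraries, so the p-values below measure only the spread among them, which may be technical.

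Proteins that enter the ER fold in an oxidizing compartment, where cysteines are joined into disulfide bonds. Protein disulfide isomerases carry thioredoxin-like domains that pass a disulfide on to a client protein or reshuffle one already formed, and the ERO1 flavoenzymes oxidize the isomerases again and hand the electrons to oxygen, which yields hydrogen peroxide. Several of these genes belong to the unfolded protein response, in which ATF6 and spliced XBP1 act with NF-Y on ER stress response elements (ERSE) in promoters. Osteoblast-lineage cells secrete much disulfide-bonded matrix protein and depend on this machinery.

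The ERSE consists of CCAAT and CCACG separated by 9 bases. It was searched on both strands of the RefSeq promoter windows (GRCh38.p14, from 250 bases before to 50 bases after each start), which held 11 windows for 9 of the 10 genes, all but PDIA3. The windows of CRELD2, PDIA6 and ERO1B held it, or 3 of the 11 windows, against 27 of 35116 windows of all genes (0.077%). These windows are shown because their genes, with PDIA3, were those of the 10 called lower in shSQLE at an adjusted p under 0.05 (edgeR). P4HB and MANF missed this threshold, at log2 fold changes of -0.63 and -0.82. Capitals mark both parts of the element and any further CCACG, which reads CGTGG on the other strand.

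CRELD2, chr22:49918384-49918683, + strand: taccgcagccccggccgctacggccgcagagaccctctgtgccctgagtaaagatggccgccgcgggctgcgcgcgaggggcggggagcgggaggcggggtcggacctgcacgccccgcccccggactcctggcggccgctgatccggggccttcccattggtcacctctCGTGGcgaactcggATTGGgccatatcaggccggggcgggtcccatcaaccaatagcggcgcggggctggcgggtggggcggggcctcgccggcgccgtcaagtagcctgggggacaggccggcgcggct
PDIA6, chr2:10812736-10813035, - strand: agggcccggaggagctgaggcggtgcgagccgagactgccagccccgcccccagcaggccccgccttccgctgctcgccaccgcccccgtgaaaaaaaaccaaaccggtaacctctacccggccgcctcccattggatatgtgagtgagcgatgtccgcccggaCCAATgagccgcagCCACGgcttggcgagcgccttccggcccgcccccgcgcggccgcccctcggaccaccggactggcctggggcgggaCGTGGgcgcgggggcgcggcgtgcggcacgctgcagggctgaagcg
ERO1B, chr1:236281909-236282208, - strand: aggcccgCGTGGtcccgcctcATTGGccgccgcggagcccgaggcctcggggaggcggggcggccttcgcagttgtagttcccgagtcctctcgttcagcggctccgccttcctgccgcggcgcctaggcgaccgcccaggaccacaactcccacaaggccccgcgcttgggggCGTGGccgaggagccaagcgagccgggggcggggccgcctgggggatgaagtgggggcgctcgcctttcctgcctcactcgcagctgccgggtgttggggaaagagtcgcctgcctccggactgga

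Relative to the RefSeq start, the first base of the element lay at -80 in CRELD2, at -86 in PDIA6 and at -243 in ERO1B, and it was read on the other strand in CRELD2 and ERO1B. PDIA6 had a second window, which held no such element. The related element ERSE-II, ATTGG and CCACG separated by 1 base, was in 0 of the 11 windows and in 0.054% of all windows. CCACG alone, which the ERSE contains, was in 7 of the 11 windows, and 38.1% of all windows held it. TGACGTGG, a sequence bound by XBP1, was in a window of TXNDC5 and of TXNDC11 and in 0.729% of all windows. These matches describe letters and are not mapped binding sites.

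Total counts per library ranged from 12212378 to 14393292. Normalized counts below are counts scaled to the mean of the effective library sizes. SQLE had normalized counts of 1349, 1867 and 1924 in the shControl replicates and of 229, 204 and 219 in the shSQLE replicates. It stood at 12.7% of its shControl level in shSQLE (log2 fold change -2.98 with a standard error, SE, of 0.17, edgeR adjusted p = 0.000299), so that the labels and the targeted transcript matched. Of the 7 osteosarcoma and mesenchymal markers examined, VIM, SPARC, CDH2, RUNX2 and COL1A1 passed the filter on low counts, whereas ALPL and COL1A2 were at or near 0, and 1 of the 5, COL1A1, fell in shSQLE (log2 fold change -0.65, edgeR adjusted p = 0.0452). The summed normalized count of the 7 was 44124 to 50413 in shControl and 46444 to 51914 in shSQLE, while that of 5 epithelial markers was at most 114 and that of 6 blood and endothelial markers at most 16.2 in any library. The sum of the 7 is mostly VIM, which had 35613.5 to 42521.2 in shControl and 39742.5 to 45338.6 in shSQLE. RUNX2 and COL1A1 averaged 207 and 164 in shControl. shControl replicate 1 stood apart from the other libraries of its group: genes with transcripts of 30.7% to 41.8% GC were lower there than in the mean of shControl replicates 2 and 3 (median log2 ratio -0.57), and those of 57.1% to 76.0% GC were higher (0.54). Results are therefore given with and without this library where it matters.

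Across the 10 genes, 9 were lower in shSQLE and 1 was higher, with a median log2 fold change of -0.61, against -0.01 over all 12450 genes tested. All 10 passed the filter on low counts. At an adjusted p under 0.05 (edgeR's quasi-likelihood test, Benjamini-Hochberg over all genes tested), 4 of the 10 fell, namely ERO1B, CRELD2, PDIA3 and PDIA6, and 0 rose; at an unadjusted p under 0.05 the numbers were 8 and 0, against 9.89% lower and 4.83% higher of all genes tested. DESeq2 called 6 of the 10 as lower. Of all genes tested, 2.84% were called lower and 0.369% higher by edgeR, and 4.56% lower by DESeq2. In 8 of the 10 genes the highest shSQLE library was under the lowest shControl library, which held for 12.1% of all genes tested, and in 0 of the 10 was the reverse seen, which held for 10.0%. The study's rule for differentially expressed genes adds a cutoff on the size of the log2 fold change, at its mean plus 2 SD over all genes. The study used DESeq2 for it, whereas here it was applied to the edgeR values, with a cutoff of 0.97. It left ERO1B and CRELD2, or 2 of the 10, against 2.10% of all genes tested.

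**Figure D1:**
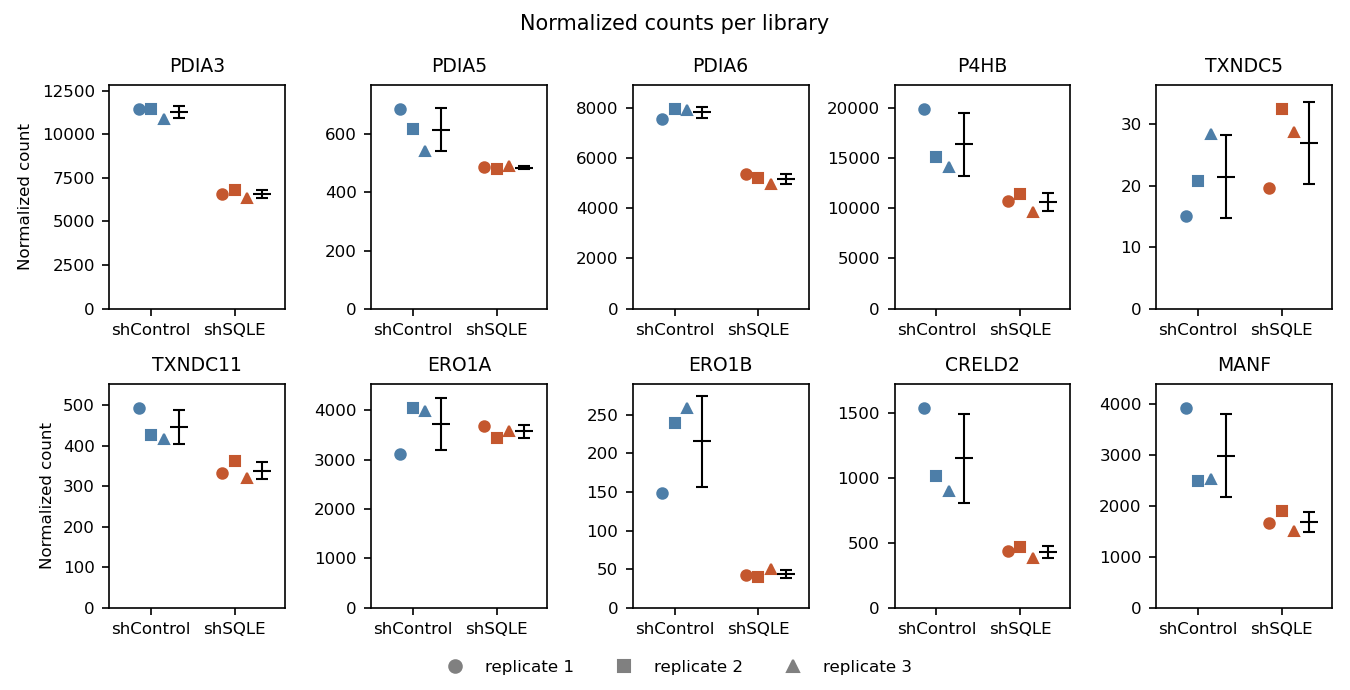
Normalized counts (linear axis from 0) of the 10 genes in each library of shControl (blue) and shSQLE (orange), with symbols for the replicate number and the mean ± SD of 3 libraries beside the points. The groups overlap only in TXNDC5 and ERO1A, and shControl replicate 1 is the highest shControl library for P4HB, CRELD2, MANF, PDIA5 and TXNDC11 and the lowest for ERO1A, ERO1B, PDIA6 and TXNDC5.

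The oxidases ERO1A and ERO1B gave different values. ERO1B (ENSG00000086619, chromosome 1, 236214681 to 236282019, - strand), the ERO1 paralog best known from secretory tissues such as the pancreas, had normalized counts of 149, 239 and 259 in shControl replicates 1, 2 and 3 and of 42.1, 39.4 and 50.4 in the shSQLE replicates. Even the lowest shControl library was thus well above all shSQLE libraries. The mean fell from 216 ± 58.6 to 44 ± 5.7 (SD, n = 3 each), or to 20.4% (log2 fold change -2.30, SE 0.25, edgeR adjusted p = 0.00302). It was the only 1 of the 10 to keep its call in all 13 alternative fits, over a range of -2.5 to -2.13. Its raw counts ran from 40 to 264. In RNA from bulk cells, a smaller share of cells that express a gene and less of its RNA per cell cannot be told apart.

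ERO1A (ENSG00000197930, chromosome 14, 52639915 to 52695900, - strand), the widely expressed oxidase that is also induced by hypoxia, did not follow. Its normalized counts were 3109, 4048 and 3991 in the shControl replicates and 3687, 3440 and 3583 in the shSQLE replicates. The shSQLE libraries lay between shControl replicate 1 and the other shControl libraries. The log2 fold change was -0.06, with a 95% interval of -0.35 to 0.23 (edgeR adjusted p = 0.895), so that a fall as large as that of PDIA3 or PDIA6 lay outside the interval. Without shControl replicate 1 the log2 fold change was -0.17 (edgeR adjusted p = 0.0919), and both remaining shControl libraries lay above all shSQLE libraries. Its sign turned without shControl replicate 2 or 3, at 0.01 each. The 2 paralogs were compared directly by their ratio within each library, which does not depend on library scaling. The log2 ratio of ERO1A to ERO1B was 4.38, 4.08 and 3.95 in shControl and 6.45, 6.45 and 6.15 in shSQLE. It rose by 2.21 in the mean, with no overlap between the groups (exact permutation test, two-sided, p = 0.1). This is the smallest p that 3 libraries against 3 allow, and it also held after Benjamini-Hochberg adjustment over the 4 ratios compared here.

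Among the isomerases, PDIA3 and PDIA6 fell with little spread between libraries. PDIA3 (ENSG00000167004, chromosome 15, 43746394 to 43773279, + strand), or ERp57, works on glycoproteins that are bound to calnexin and calreticulin and is part of the MHC class I peptide loading complex. Its normalized counts were 11475, 11477 and 10894 in shControl and 6569, 6782 and 6334 in shSQLE. The 3 shControl libraries lay close together and far above the shSQLE libraries. The mean fell from 11282 ± 336 to 6562 ± 224 (SD, n = 3 each), or to 58.2% (log2 fold change -0.78, SE 0.09, edgeR adjusted p = 0.00464). The call was lost by a small margin without shSQLE replicate 1 (edgeR adjusted p = 0.0584) or shSQLE replicate 3 (edgeR adjusted p = 0.0504), while the log2 fold change stayed within -0.82 to -0.74 in all 13 fits.

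PDIA6 (ENSG00000143870, chromosome 2, 10783391 to 10837977, - strand), or P5, is an isomerase that associates with the chaperone BiP and acts on the stress sensor IRE1. It had normalized counts of 7554, 7965 and 7909 in shControl and of 5352, 5180 and 4945 in shSQLE. As for PDIA3, the spread within each group was small beside the gap between them. The mean fell from 7810 ± 223 to 5159 ± 205 (SD, n = 3 each), or to 66.1% (log2 fold change -0.60, SE 0.09, edgeR adjusted p = 0.0149). Leaving out single libraries ended the call in 5 of 6 cases, all but that without shControl replicate 1, with an adjusted p of up to 0.116 and a log2 fold change from -0.62 to -0.55. The exons of PDIA6 overlap those of ATP6V1C2 on the opposite strand over 25.2% of their length, and ATP6V1C2 had at most 69 counts in a library. The strand setting of the counting is not given, so whether PDIA6 lost reads in the shared exons is not known. The log2 ratio of PDIA6 to PDIA3 was -0.60, -0.53 and -0.46 in shControl and -0.30, -0.39 and -0.36 in shSQLE, a rise of 0.18 in the mean (two-sided exact permutation test, p = 0.1).

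P4HB (ENSG00000185624, chromosome 17, 81843159 to 81860856, - strand) encodes PDI itself, which also serves as the beta subunit of collagen prolyl 4-hydroxylase and of the microsomal triglyceride transfer protein. Its normalized counts were 19931, 15078 and 14105 in shControl and 10721, 11421 and 9619 in shSQLE. The groups did not overlap, but shControl replicate 1 was well above the other 2 control libraries. The means were 16371 ± 3121 and 10587 ± 908 (SD, n = 3 each). The log2 fold change was -0.63 (SE 0.15) and missed the threshold (edgeR adjusted p = 0.0750, DESeq2 adjusted p = 0.0141). It passed the threshold without shControl replicate 1, at -0.46 (edgeR adjusted p = 0.00196). The log2 ratio of ERO1A to P4HB, the oxidase against its main substrate, was -2.68, -1.90 and -1.82 in shControl and -1.54, -1.73 and -1.42 in shSQLE. It was thus higher in shSQLE by 0.57 in the mean (two-sided exact permutation test, p = 0.1), with a gap between the groups that was smaller than the spread within shControl, and by 0.29 without shControl replicate 1.

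The 3 less abundant proteins with thioredoxin-like domains gave no call. PDIA5 (ENSG00000065485, chromosome 3, 123067025 to 123225227, + strand), an isomerase known to act on the stress sensor ATF6, had normalized counts of 688, 617 and 541 in shControl and of 487, 479 and 489 in shSQLE. Its log2 fold change was -0.34, with a 95% interval of -0.64 to -0.05 (edgeR adjusted p = 0.254). TXNDC11 (ENSG00000153066, chromosome 16, 11679083 to 11742857, - strand), a membrane-bound thioredoxin-domain protein of ER-associated degradation, had 494, 427 and 418 in shControl and 332, 363 and 322 in shSQLE. Its log2 fold change was -0.40, with a 95% interval of -0.69 to -0.10 (edgeR adjusted p = 0.189). In both genes the shSQLE libraries all lay below the shControl libraries, and shControl replicate 1 was the highest. PDIA5 shares 12.1% of its exon length with SEC22A on the same strand.

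TXNDC5 (ENSG00000239264, chromosome 6, 7881517 to 7910788, - strand), or ERp46, a further isomerase of this family, could hardly be measured. Its raw counts were 13 to 33 in a library, and its normalized counts of 15.0, 20.8 and 28.4 in shControl overlapped those of 19.6, 32.5 and 28.8 in shSQLE (log2 fold change 0.32, 95% interval -0.42 to 1.06, edgeR adjusted p = 0.738). In GENCODE v44, 61.0% of its exon length is also annotated to the read-through gene BLOC1S5-TXNDC5 on the same strand, which was listed at 0 counts in all 6 libraries. Whether reads in the shared exons were given to neither gene is not stated in the sources used here, so the level of TXNDC5 is uncertain in both groups.

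CRELD2 and MANF are small secreted or ER-retained proteins that are induced by ER stress. CRELD2 (ENSG00000184164, chromosome 22, 49918167 to 49927540, + strand), whose window with the ERSE is printed above, has isomerase-like activity and had normalized counts of 1542, 1016 and 898 in shControl and of 435, 472 and 385 in shSQLE. Every shControl library was thus far above the highest shSQLE library, with shControl replicate 1 the highest of all. The mean fell from 1152 ± 343 to 431 ± 43.5 (SD, n = 3 each), or to 37.4% (log2 fold change -1.42, SE 0.21, edgeR adjusted p = 0.0126). It was -1.15 without shControl replicate 1 and lost its call without any 1 of the shSQLE replicates, with an adjusted p of up to 0.104 (from edgeR). Its exons overlap those of ALG12 on the opposite strand over 3.25% of their length.

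MANF (ENSG00000145050, chromosome 3, 51385291 to 51389397, + strand), which binds BiP and stabilizes its complexes with clients, had normalized counts of 3926, 2498 and 2529 in shControl and of 1659, 1897 and 1517 in shSQLE. Again the groups did not overlap, and shControl replicate 1 stood alone at the top. The means were 2984 ± 816 and 1691 ± 192 (SD, n = 3 each). The log2 fold change was -0.82 (SE 0.19) and missed the threshold (edgeR adjusted p = 0.0721, DESeq2 adjusted p = 0.00649). It passed the threshold without shControl replicate 1, at -0.57 (edgeR adjusted p = 0.000849). The log2 ratio of CRELD2 to MANF was -1.35, -1.30 and -1.49 in shControl and -1.93, -2.01 and -1.98 in shSQLE, so that it was lower in every shSQLE library, with a mean difference of -0.59 (two-sided exact permutation test, p = 0.1).

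For most of the 10 genes, the spread within shControl moved with the GC content of the transcripts. In shControl replicate 1, the log2 ratio to the mean of the other 2 control libraries was -0.74 for ERO1B and -0.37 for ERO1A, whose canonical transcripts have the lowest GC contents of the 10 (36.6% and 37.5%). It was 0.45 for P4HB and 0.69 for CRELD2, which have the highest (57.2% and 60.7%). PDIA3 and PDIA6, at 43.4% and 45.5%, lay near 0, at 0.04 and -0.07. MANF, at 0.64 with 49.7%, and TXNDC5, at -0.70 with 51.0%, departed from this order; MANF has the shortest transcript (909 nt), and TXNDC5 the fewest counts.

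**Figure D2:**
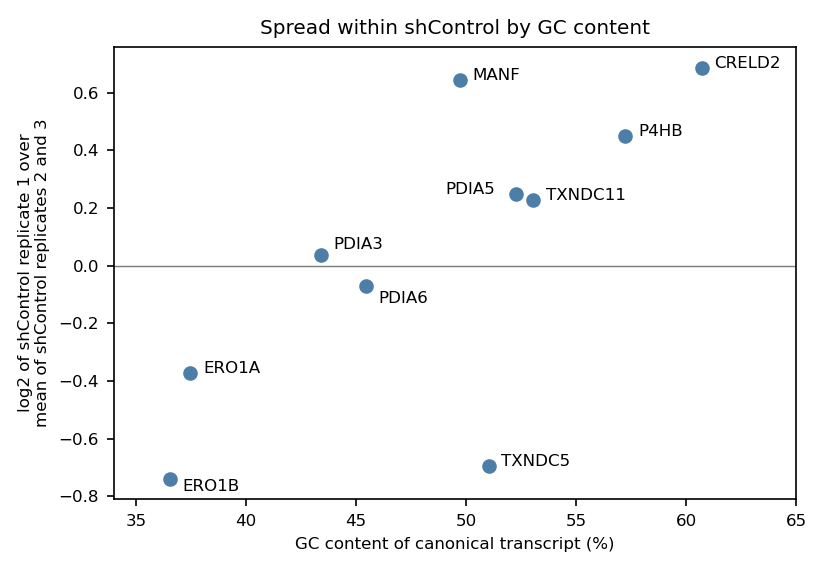
For each of the 10 genes, the log2 ratio of the normalized count in shControl replicate 1 to the mean of shControl replicates 2 and 3 (vertical axis) against the GC content of the canonical transcript in percent (horizontal axis). ERO1B at 36.6% GC lies at -0.74 and CRELD2 at 60.7% lies at 0.69, with PDIA3 and PDIA6 near 0.

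With smooth trends on GC content and transcript length taken out of each library, a correction chosen after seeing the data, 8 of the 10 genes were called lower, all but ERO1A and TXNDC5, against 10.4% of all genes in that fit. The log2 fold changes themselves moved little: they were -0.40 for PDIA5, -0.65 for P4HB, -0.40 for TXNDC11 and -0.91 for MANF, the 4 genes that gained a call. Without shControl replicate 1, 7 of the 10 were called lower, all but PDIA5, ERO1A and TXNDC5, against 18.3% of all genes. Without 1 shSQLE replicate the calls shrank to ERO1B alone when replicate 1 or 3 was left out (1 of the 10, against 0.835% and 0.801% of all genes) and to ERO1B and PDIA3 when replicate 2 was left out (2 of the 10, against 0.827%). In these fits 2 libraries stand for the group, and the log2 fold changes of all 10 genes kept their sign.

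**Figure D3:**
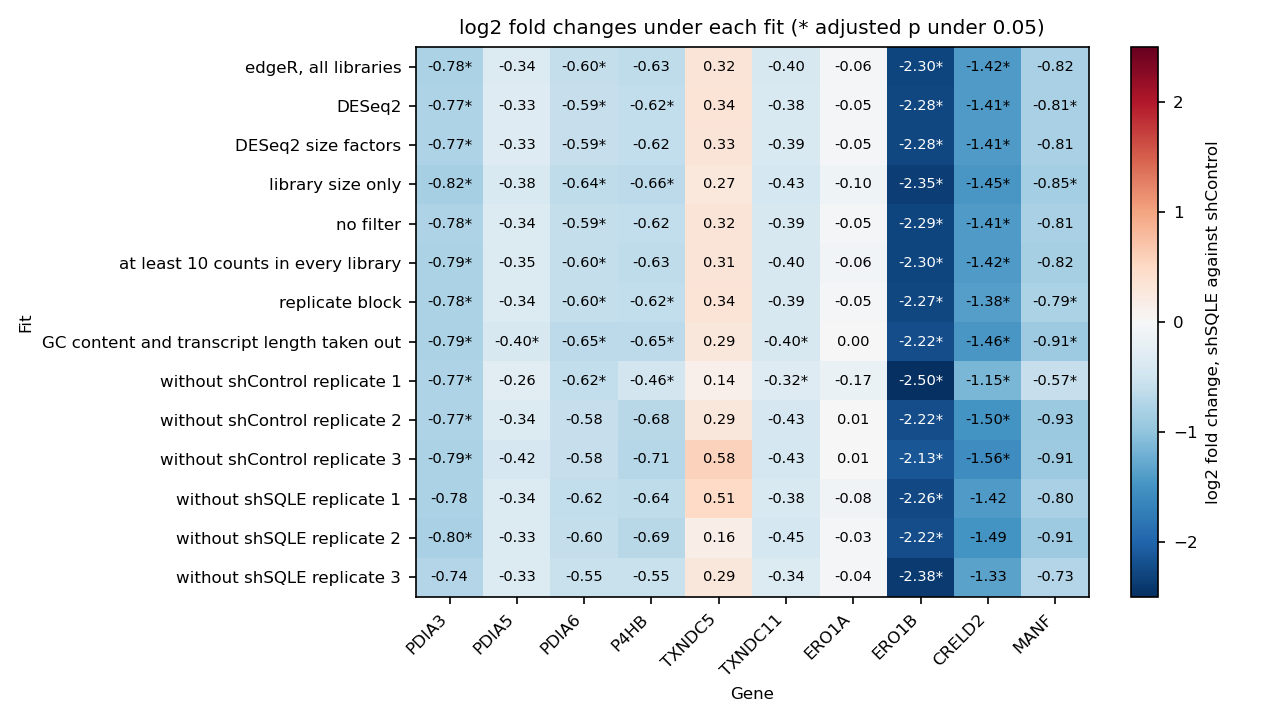
Log2 fold changes, shSQLE against shControl, of the 10 genes (columns) under each fit (lines of the heat map, the first being edgeR on all libraries), coloured from blue (lower) to red (higher), with an asterisk where the adjusted p was under 0.05. ERO1B carries an asterisk in every fit, and ERO1A stays between -0.17 and 0.01.

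Levels can be set beside each other only per length, here as TPM from the counts and the canonical transcript lengths. In shControl, P4HB was the most abundant at 963 ± 41.4 TPM (SD, n = 3), followed by PDIA6 at 501 ± 80.6, MANF at 467 ± 57.3 and PDIA3 at 446 ± 54.0. PDIA6 was above PDIA3 in all 3 shControl libraries, whereas MANF was above both in shControl replicate 1 and below both in replicates 2 and 3. CRELD2 at 114 ± 16.7 and ERO1A at 107 ± 28.0 did not differ beyond their spread, and PDIA5 (48.2 ± 3.0), TXNDC11 (20.7 ± 1.03), ERO1B (6.45 ± 2.45) and TXNDC5 (1.09 ± 0.46) followed. In shSQLE, P4HB was still the highest at 598 ± 10.1 TPM, and PDIA6 stood at 312 ± 15.2, MANF at 256 ± 13.7 and PDIA3 at 246 ± 10.3. ERO1A (96.1 ± 8.73) was now above CRELD2 (41.5 ± 1.34), and ERO1B (1.22 ± 0.25) was at the measured level of TXNDC5 (1.27 ± 0.32). As described above, the level of TXNDC5 is uncertain in both groups, and so is its place in this order. On this scale ERO1A exceeded ERO1B in both groups.

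Around the 10 genes, the rest of the PDI family was mixed. Of 12 other family members tested, 3 fell and 0 rose, against 2.84% called lower and 0.369% higher of all genes. Their median log2 fold change was -0.28. Without shControl replicate 1, 7 genes of this list were called lower and 2 higher, against 18.3% and 15.6% of all genes. PDIA4, the BiP-associated isomerase ERp72, had 5699 ± 63.1 normalized counts in shControl and 2538 ± 77.4 in shSQLE (SD, n = 3 each; log2 fold change -1.17, SE 0.09, edgeR adjusted p = 0.000979). ERP44, which retains ERO1 oxidases in the early secretory pathway, fell from 1002 ± 54.6 to 647 ± 16.6 (log2 fold change -0.63, edgeR adjusted p = 0.0202). AGR2 had normalized counts of 13.9, 31.7 and 20.6 in shControl and of 0.98, 3.94 and 1.03 in shSQLE, at or close to the floor of 3 counts (edgeR adjusted p = 0.0211). The log2 fold change of TMX1, a transmembrane isomerase and with the second highest mean count of this list, was 0.05 (edgeR adjusted p = 0.934).

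Other routes of thiol oxidation and redox control in the ER gave 1 call, lower, in 16 genes tested, against 2.84% called lower of all genes. The median log2 fold change was -0.06. SELENOS, a selenoprotein of ER-associated degradation, fell to 64.7% (log2 fold change -0.63, edgeR adjusted p = 0.0450). This call was lost in 9 of the 13 alternative fits, among them all that left out 1 library except that without shControl replicate 1. SELENOF and VKORC1L1, with the highest mean counts of this list, had log2 fold changes of 0.10 and 0.00. Of 9 genes of the calnexin cycle, with which PDIA3 works, 0 passed the adjusted p, with a median of -0.39. At an unadjusted p under 0.05, 4 were lower (9.89% of all genes), and DESeq2 called 1 as lower (4.56% of all genes). Without shControl replicate 1, 6 of these 9 were called lower and 2 higher, against 18.3% and 15.6% of all genes. CALR and CANX, the lectin chaperones themselves, had log2 fold changes of -0.51 and -0.62 (edgeR adjusted p = 0.175 and 0.145). The P4HA1 and P4HA2 subunits that pair with P4HB in prolyl 4-hydroxylase had log2 fold changes of -0.24 and -0.74 (edgeR adjusted p = 0.543 and 0.0595).

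Of 15 ER chaperone genes tested, 6 fell and 0 rose, with a median of -0.61, against 2.84% called lower and 0.369% higher of all genes. BiP (HSPA5), with which PDIA6 and MANF associate, stood at 31.7% of its shControl level (log2 fold change -1.66, edgeR adjusted p = 0.000299). HSP90B1, DNAJB9, HYOU1 and DNAJB11 had log2 fold changes of -1.32, -1.74, -1.0 and -0.77. Of 14 sensors and factors of the unfolded protein response, DDIT3 (log2 fold change -1.54) and CREB3L2 (-0.74) fell and 0 rose, against the same shares of all genes. ATF4 at 0.41 and XBP1 at -0.21 were short of the threshold (edgeR adjusted p = 0.300 and 0.405). The fit without shControl replicate 1 called 4 genes of this list lower and 1 higher, against 18.3% and 15.6% of all genes. The 21 thiol redox genes of the cytosol and mitochondria gave 0 calls by edgeR, 0 at an unadjusted p under 0.05 and 0 by DESeq2, with a median of 0.11 and log2 fold changes of 0.17 for PRDX1 and 0.23 for TXNRD1. Without shControl replicate 1, 9 of these 21 were called higher, against 15.6% of all genes, and the difference between this list and the 10 genes was not tested.

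The promoter element was also followed beyond the 10 genes. Of the 25 genes with an ERSE in a window, 16 were tested, and 6 of these were called lower and 0 higher, with a median log2 fold change of -0.55, against 2.84% called lower of all genes. Besides CRELD2, PDIA6 and ERO1B, these were HSPA5, HSP90B1 and SERP1, so that 3 of the 13 other genes with the element were called, with a median of -0.48 over these 13. ALG12, whose exons overlap those of CRELD2 on the opposite strand, was among the uncalled at -0.23 (edgeR adjusted p = 0.580). CALR, CANX and XBP1 were also uncalled, at -0.51, -0.62 and -0.21 (edgeR adjusted p = 0.175, 0.145 and 0.405). Whether the element had a part in these changes was not tested, and the search was chosen with earlier results known.

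Among 9782 genes outside all lists that averaged 100 or more normalized counts, the 5 whose log2 CPM followed the mean of the 10 genes most closely over the 6 libraries were AKR1C3 (Pearson r = 0.996), HERPUD1 (0.995), PLEKHA4 (0.995), TGM2 (0.994) and HERC6 (0.992). All 5 lay lower in every shSQLE library than in any shControl library, as did the mean of the 10 genes, so the 6 points form 2 separate clusters and the coefficients are a description only. The log2 fold change of HERPUD1, a gene of ER-associated degradation, was -1.21, and that of AKR1C3, an aldo-keto reductase, was -1.75.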

How the data were processed

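The 6 libraries, 3 per group, were grouped by their genotype label. Per the labels and methods, the authors used fastp 0.20.0 for trimming, STAR 2.7.9a for alignment (hg38) and featureCounts 2.0, and the deposited table holds whole counts for each gene with no normalization. Annotation release, strand setting and multi-mapping reads are not given in the sources used here.

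Counts were fitted with edgeR 4.0.16 in R 4.3.3 (filterByExpr, TMM, quasi-likelihood test, condition as the only term, Benjamini-Hochberg over 12450 genes). A standard error is the log2 fold change divided by the square root of F. DESeq2 1.42.0 (the study's tool) and mgcv 1.9.3 served alternatives: other scalings, filters, a replicate block, leaving out each library, and GC content with length. The script was tested on simulated data. GENCODE v44 gave transcript lengths, GC contents and overlaps. TPM used canonical transcript lengths. Replicate libraries were not copies (chi-square per degree of freedom at least 2.83).

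The 10 genes and all lists were chosen with earlier results of these data known. Named genes were SQLE, the 10 genes, and in each list up to 5 genes past the adjusted p and the 2 most abundant, plus the 5 genes most like the 10; SERP1 and ALG12 were named after their values were seen. The same holds for the promoter search.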

Additional observations from a re-analysis of the deposited data

How the results depend on the processing

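Over 13 alternative fits, SQLE, PDIA3, PDIA6, ERO1B and CRELD2 stayed lower in shSQLE, and SQLE and ERO1B kept their calls. P4HB and MANF, at -0.63 and -0.82 on the log2 scale and uncalled, passed the threshold with DESeq2 (-0.62 and -0.81), library size only (-0.66 and -0.85), the replicate block (-0.62 and -0.79) and GC content with transcript length taken out (-0.65 and -0.91), and the last did the same for PDIA5 (-0.40) and TXNDC11 (-0.40). The replicate numbers gave no clear pairing of the libraries. The correlations of the deviations of same-numbered libraries were 0.14, -0.43 and 0.54, and only shSQLE replicates 1 and 3 correlated best with their own number. Within a group, deviations from the group mean are not independent, so these values cannot decide whether the libraries were paired. With the replicate block, 6 of the 10 genes were called lower, beside 362 lower and 34 higher of all 12450 genes. Leaving out 1 library gave ranges of -0.80 to -0.74 for PDIA3, -0.62 to -0.55 for PDIA6, -0.71 to -0.46 for P4HB, -0.17 to 0.0088 for ERO1A (0.0086 and 0.0088 without shControl replicates 2 and 3, a reversed sign), -0.45 to -0.32 for TXNDC11, -1.56 to -1.15 for CRELD2 and -0.93 to -0.57 for MANF. TXNDC5, at 0.32, moved to 0.14 without shControl replicate 1 and to 0.58 without shControl replicate 3. PDIA5 and TXNDC5 did not change sign in any of these fits.

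The number of the 10 genes called lower was 4. Taking out GC content and length gave 8, and there were 2 under the study's rule, and 1 to 7 with 1 library left out. For the other PDI genes it was 5 with DESeq2 and 5 with GC content and length taken out, and with 1 library left out 1 to 7 lower and 0 to 2 higher. The 1 call in thiol oxidation and ER redox, SELENOS, was lost (0) with DESeq2 size factors, no filter, a minimum of 10 counts, the replicate block and the study's rule; GC content and length taken out gave 2 lower and 1 higher, DESeq2 1 higher, and leave-one-out 0 to 2 lower and 0 to 1 higher. In the calnexin cycle DESeq2 gave 1, GC content and length taken out 5, and leave-one-out 0 to 6 lower and 0 to 2 higher. For the P4HB partner enzymes DESeq2, library size only, the block and GC content with length taken out gave 1 each and leave-one-out 0 to 2. The ER chaperones gave 12 with GC content and length taken out. The factors of the unfolded protein response gave 1 with library size only and 1 under the study's rule, 5 lower and 1 higher with GC content and length taken out, and leave-one-out 0 to 4 lower and 0 to 1 higher. Cytosolic and mitochondrial thiol genes gave 1 lower and 1 higher with GC content and length taken out, and leave-one-out 0 to 9 higher. Over all genes, 354 lower and 46 higher became 568 and 162 with DESeq2 and 1294 and 888 with GC content and length taken out, and leave-one-out gave 101 to 2300 lower and 4 to 1964 higher, the most without shControl replicate 1. The causes of these shifts were not tested. TXNDC5 had 13 to 33 counts, and whether depth or reads in shared exons set this level was not tested.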
